A study of Mus musculus with 2 samples.

Results

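Solute carriers were read as the genes whose symbol is Slc followed by digits, a letter and digits, with Slc2a4, Slc25a20 and the Slc27a fatty acid transporters left aside. The array held 395 probe sets of 247 such genes among 12393 named genes, and 130 of them had a mean signal of at least 100 over both arrays, among 8009 genes above that level. These 130 genes are described here by the substrate they carry. A probe set is a group of short oligonucleotides that reads part of a transcript, and a gene with several was read at the one whose signal, averaged over both arrays, was highest.

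Tumors arose in female FVB wild-type mice that were 5 weeks old when they received 15 mg of the progestin medroxyprogesterone acetate and then 4 weekly doses of 1 mg DMBA, a carcinogen, by gavage. From the day after the last dose, one group ate chow with 0.1% GW9662, an irreversible inhibitor of the nuclear receptor PPARγ, and the control group ate standard chow. RNA of 5 mice per diet was pooled onto 1 array, so there was no replicate, no test between the diets was possible and a difference cannot be told apart from one between mice, tumors or arrays. Differences are therefore given by their size, as the log2 ratio of GW9662 over control, and the number of arrays limits the precision of every value.

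Solute carriers are membrane proteins that move nutrients, ions, metabolites and vitamins across the plasma membrane and the membranes of mitochondria, lysosomes, endoplasmic reticulum and Golgi. Families are numbered by sequence relation, and members of one family can exchange, co-transport with sodium or protons, or let a substrate pass down its gradient. In the mammary gland they supply glucose, amino acids, choline and zinc for milk. In tumors they feed growth with glutamine, essential amino acids and glucose.

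The pooled tumors held epithelium on both diets, and markers of fat, muscle and milk secretion were lower on the GW9662 diet. The 7 luminal epithelial markers measured, such as the keratins Krt8 and Krt18, had a summed signal of 45819 in GW9662 tumors and 43575 in control tumors, and none differed 2-fold. All 9 adipocyte markers on the array were at least 2-fold lower with GW9662, and summed to 6556 in GW9662 tumors and 53611 in control tumors. So were 10 of 10 measured skeletal muscle markers (the 11 on the array summed to 1232 in GW9662 tumors and 11409 in control tumors). Of 9 milk secretion markers 8 were at least 2-fold lower (summed signals of 10759.8 in GW9662 tumors and 44179 in control tumors). The other, Csn3, was 1.24-fold lower and held most of the GW9662 sum (6908 in GW9662 tumors and 8575 in control tumors). Endothelial markers summed to 1631 in GW9662 tumors and 2847 in control tumors, and all 5 measured ones were lower, 2 at least 2-fold. Basal epithelial markers summed to 13122 in GW9662 tumors and 14455 in control tumors. Most of that sum was Acta2 (9275 in GW9662 tumors and 9559 in control tumors). Of the 6 basal markers 4 were lower and 2 higher, with a median log2 ratio of -0.35. Krt5 and Krt14 were 1.58-fold and 1.65-fold lower. Macrophage markers summed to 15633 in GW9662 tumors and 16730.4 in control tumors. None of the markers on the array was at 0. In pooled tissue, fewer cells of a type and less RNA per cell cannot be told apart, and the part of these tissues in the solute carrier differences was not tested.

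More solute carriers had a lower than a higher signal with GW9662. Of the 130 measured genes, 83 (63.8%) were lower in GW9662 tumors and 46 (35.4%) were higher, and 1 was equal, while over all 8009 measured genes 47.1% were lower and 52.9% higher. The median log2 ratio was -0.15 over the solute carriers and 0.03 over all measured genes. Counts of lower and higher genes by class and family, given below, are to be read beside these shares. Most differences were small, as 94 solute carriers (72.3%) were within 1.5-fold, against 82.9% of all measured genes. At least 2-fold lower were 12 (9.23%), against 4.83% of all measured genes, and at least 2-fold higher were 3 (2.31%), against 1.06%. Of the 76 that reached 300 on one array or both, 3 (3.95%) were at least 3-fold lower, against 2.68% of all such genes. Only 1 (1.32%), Slc5a8, was at least 3-fold higher, against 0.215%. The solute carriers were dimmer, with median signals of 304 in GW9662 tumors and 382 in control tumors. Over all measured genes the medians were 538.5 in GW9662 tumors and 556.5 in control tumors. Of the 15 solute carriers past 2-fold, 7 had one signal below 100, and the part of signal level in these shares was not tested. No test compares the shares. The SD of log2 ratios among probe sets reading one gene was 0.34 over the 36 solute carriers with at least 2 measured probe sets.

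**Figure D1:**
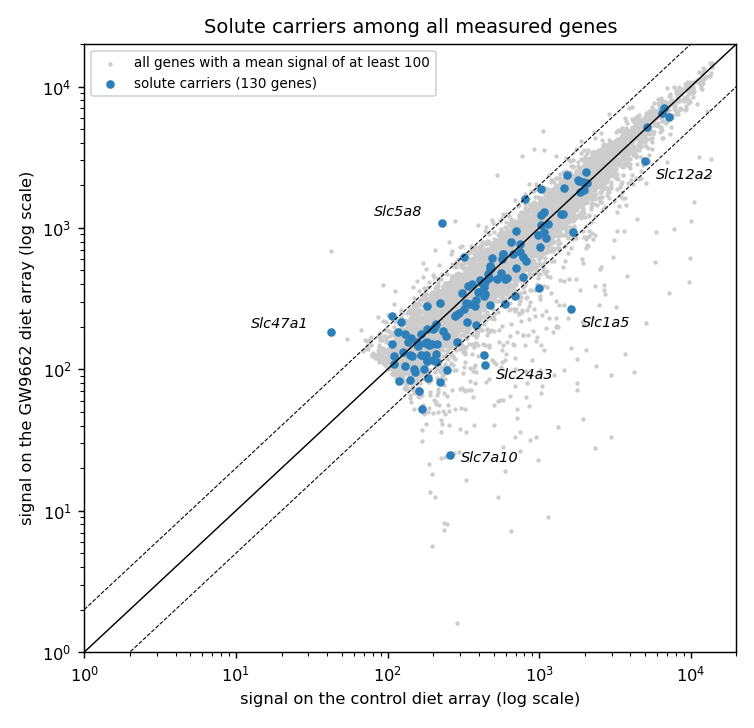
Signal of each measured gene on the GW9662 diet array (y axis) and the control diet array (x axis), both on log scales, with solute carriers in blue over all measured genes in gray. Genes of equal signal lie on the solid line and 2-fold differences on the dashed lines, and 12 solute carriers lie on or below the lower dashed line and 3 above the upper one.

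Of the 15 genes that differed at least 2-fold, 7 reached a signal of 300 on either array. Slc1a5 encodes ASCT2, the exchanger that brings glutamine and other neutral amino acids into growing cells. It had a signal of 267 in GW9662 tumors and 1612 in control tumors, 6.03-fold lower. Slc24a3, an exchanger of sodium for calcium and potassium, had 107 in GW9662 tumors and 439.8 in control tumors, 4.10-fold lower. The glutamate transporter gene Slc1a3 had 126 in GW9662 tumors and 431 in control tumors, 3.42-fold lower. Slc25a10, the mitochondrial dicarboxylate carrier, had 378 in GW9662 tumors and 993 in control tumors, 2.63-fold lower. GW9662 signals of Slc24a3 and Slc1a3 were near the minimum of 100, and those of Slc1a5 and Slc25a10 were above it. In the RefSeq annotation of GRCm38.p6 Slc1a5 lies on chromosome 7, Slc24a3 on chromosome 2, Slc1a3 on chromosome 15 and Slc25a10 on chromosome 11.

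The remaining 2 lower genes were close to 2-fold. Slc28a3, a concentrative transporter of purine and pyrimidine nucleosides, had 328 in GW9662 tumors and 696 in control tumors, 2.12-fold lower, and Slc6a6, the taurine transporter, had 289 in GW9662 tumors and 593 in control tumors, 2.05-fold lower (a log2 ratio of -0.97, short of 2-fold, after quantile normalization). Slc5a8 was the 1 gene of the 7 that was higher. It encodes the sodium-coupled transporter of lactate, pyruvate and short-chain fatty acids. Its signal was 1081 in GW9662 tumors against 229.8 in control tumors, 4.70-fold higher. Slc5a8, Slc1a5 and Slc24a3 each had only 1 probe set on the array. Slc1a5 and Slc5a8 are on gene lists that the study drew from these same arrays, so their direction here is no independent evidence.

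The other 8 genes stayed below 300 on both arrays and are named because of their ratio, after their values were seen. Slc7a10 encodes Asc-1, an exchanger of small neutral amino acids that is known as a surface protein of white fat cells. It had 24.9 in GW9662 tumors and 259.6 in control tumors, and with the floor of 100 used for dim signals it was at least 2.60-fold lower. The 9 adipocyte markers summed to 6556 in GW9662 tumors and 53611 in control tumors. Slc45a3, a sugar transporter (99.1 in GW9662 tumors and 247 in control tumors), was at least 2.46-fold lower, and Slc5a1, the sodium-glucose cotransporter SGLT1 (81.2 in GW9662 tumors and 221 in control tumors), was at least 2.21-fold lower. Slc44a4, a choline-transporter-like protein that carries thiamine pyrophosphate, was 2.22-fold higher, with both signals above the floor (237 in GW9662 tumors and 107 in control tumors).

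For the remaining 4 the bound did not reach 2-fold. Slc16a7, the monocarboxylate transporter MCT2, had 52.5 in GW9662 tumors and 169 in control tumors. Slc5a6, the sodium-dependent transporter of biotin and pantothenate, had 70.3 in GW9662 tumors and 162 in control tumors, and the zinc importer Slc39a4 had 86.2 in GW9662 tumors and 185 in control tumors (a log2 ratio of -0.93 after quantile normalization). Slc47a1, the proton-coupled extruder of organic cations MATE1, went the other way, with 185 in GW9662 tumors and 42.2 in control tumors. These genes passed the mean signal of 100 through the array on which they were high, as did 9 genes in all with a GW9662 signal below 100 and 1 with a control signal below 100.

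**Figure D2:**
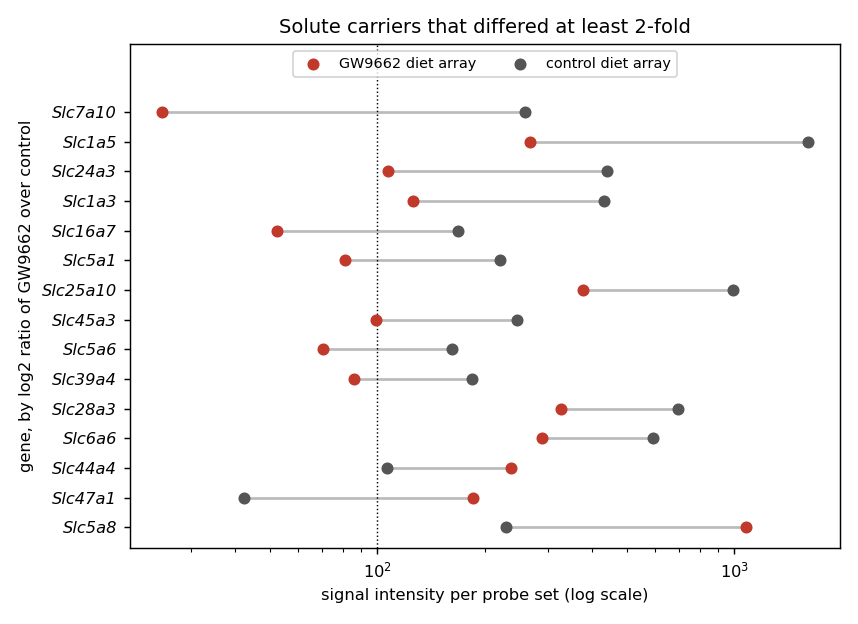
Signals of the 15 solute carriers that differed at least 2-fold, on a log scale, with the GW9662 diet array in red and the control diet array in dark gray, ordered by log2 ratio. The dotted line marks the floor of 100, and 7 of the 15 genes have one signal below it.

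The stretch of 250 bases before the start of transcription is shown for the gene with the highest ratio and for 2 lower genes, one of fat cell membranes and one of mitochondria, because motifs there can be read beside the signals. Sequences are those of RefSeq on GRCm38.p6, all on the plus strand, at chr10:88885742-88885991 for Slc5a8, chr7:35186135-35186384 for Slc7a10 and chr11:120491587-120491836 for Slc25a10. Capitals mark the GC box, GGGCGG on either strand.
Slc5a8: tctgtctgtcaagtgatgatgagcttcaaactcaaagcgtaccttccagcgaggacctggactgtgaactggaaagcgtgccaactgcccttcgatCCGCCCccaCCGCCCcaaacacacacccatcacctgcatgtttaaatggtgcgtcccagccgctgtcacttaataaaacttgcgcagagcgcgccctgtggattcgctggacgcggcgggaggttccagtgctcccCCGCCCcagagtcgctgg
Slc7a10: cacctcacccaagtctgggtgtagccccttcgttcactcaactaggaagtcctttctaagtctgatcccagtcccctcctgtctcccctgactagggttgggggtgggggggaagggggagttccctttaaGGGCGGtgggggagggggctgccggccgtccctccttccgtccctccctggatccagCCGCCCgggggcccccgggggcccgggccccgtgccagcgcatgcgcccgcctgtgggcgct
Slc25a10: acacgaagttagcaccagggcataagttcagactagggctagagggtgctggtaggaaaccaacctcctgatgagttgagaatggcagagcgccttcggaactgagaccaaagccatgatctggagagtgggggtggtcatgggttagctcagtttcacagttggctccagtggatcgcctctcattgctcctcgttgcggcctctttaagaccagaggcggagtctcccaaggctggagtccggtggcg

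The GC box stood 154, 145 and 18 bases before the start in Slc5a8, 119 and 62 bases before it in Slc7a10 and nowhere in the Slc25a10 window. Promoter windows were found for 98 of the 130 genes, some with several starts, and 91 of their 139 windows (65.5%) held a GC box, against 32.7% of 32851 windows of the same length over all genes. The 98 genes had passed the signal minimum, while the windows over all genes were not chosen by signal. The shares of windows with a motif therefore cannot set solute carriers apart from measured genes in general. The part of signal level in these shares was not tested. The CCAAT box, CCAAT on either strand, was in 30.9% of the solute carrier windows and 33.8% of all windows. The amino acid response element, TGATGNAA on either strand, was in 2.16% of the solute carrier windows and 3.45% of all windows. Genes that differed at least 2-fold had 13 windows, found for 10 of them. Of these windows 9 held a GC box, 5 a CCAAT box and 0 the amino acid response element. At a share of 3.45%, 13 windows are too few for 0 to say anything about these genes. A direct repeat of AGGTCA spaced by any 1 base is the form of element that PPARγ binds with its partner RXR. It was in 0 of the 139 solute carrier windows and in 11 (0.0335%) of all windows. The repeat is so rare that 0 in 139 windows could hardly have come out otherwise and says nothing about these genes. Slc1a5, which the paper lists among genes with PPARγ response elements, had no promoter window here. A match is a description of the letters and not a binding site, and no match speaks only of this window.

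Amino acid transporters held the widest range of ratios. Of 34 genes on the array 14 were measured, with 9 lower and 5 higher in GW9662 tumors and a median log2 ratio of -0.14, and 3 were at least 2-fold lower. The median of the class was 0.20 at a minimum mean signal of 200 in place of 100. All 3 measured genes of the Slc1 family were lower, against 47.1% of all measured genes. The third, Slc1a4, the related neutral amino acid exchanger ASCT1, had 101 in GW9662 tumors and 149 in control tumors, 1.48-fold lower. A second Slc1a3 probe set was lower as well (75.5 in GW9662 tumors and 321 in control tumors).

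The class also held higher genes, of which Slc7a5 and Slc6a15 had the largest ratios. Slc7a5, the exchanger LAT1 that takes up leucine and other essential amino acids, had 1890.3 in GW9662 tumors and 1034 in control tumors, 1.83-fold higher. Its heavy chain Slc3a2, which carries LAT1 to the cell surface, was slightly lower at 1848 in GW9662 tumors and 1969 in control tumors. Slc6a15, a sodium-dependent transporter of branched-chain amino acids and proline, had 619 in GW9662 tumors and 320.1 in control tumors, 1.93-fold higher. Both higher genes stayed just short of 2-fold.

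The sodium-coupled glutamine transporters differed little. Slc38a2, which cells raise when amino acids run short, had 2121 in GW9662 tumors and 1941 in control tumors, and Slc38a1 had 196 in GW9662 tumors and 202 in control tumors. Slc38a10 had 2176 in GW9662 tumors and 1796 in control tumors at the probe set read here and 1225 in GW9662 tumors and 1624 in control tumors at the next, so its direction depends on the probe set. Of the exchangers of basic with neutral amino acids, Slc7a6 had 297 in GW9662 tumors and 220.3 in control tumors and Slc7a7 had 153 in GW9662 tumors and 176 in control tumors. A second Slc7a6 probe set was level (210.7 in GW9662 tumors and 212.2 in control tumors). The glycine transporter Slc6a9 had 124 in GW9662 tumors and 145 in control tumors. Slc7a4 had 152 in GW9662 tumors and 212 in control tumors. All of these genes stayed within 1.5-fold.

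Atf4, a transcription factor that raises several amino acid transporters and synthetic enzymes when amino acids are scarce, and its targets ran both ways. Of the 11 measured genes of this list, Atf4 included, 6 were lower and 5 higher, none by 2-fold, with a median log2 ratio of -0.03. Asns, which makes asparagine from glutamine, had 420.0 in GW9662 tumors and 821 in control tumors, 1.96-fold lower, while Atf4 itself had 1846 in GW9662 tumors and 1883 in control tumors and the serine synthesis gene Phgdh had 2197 in GW9662 tumors and 2407 in control tumors.

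**Figure D3:**
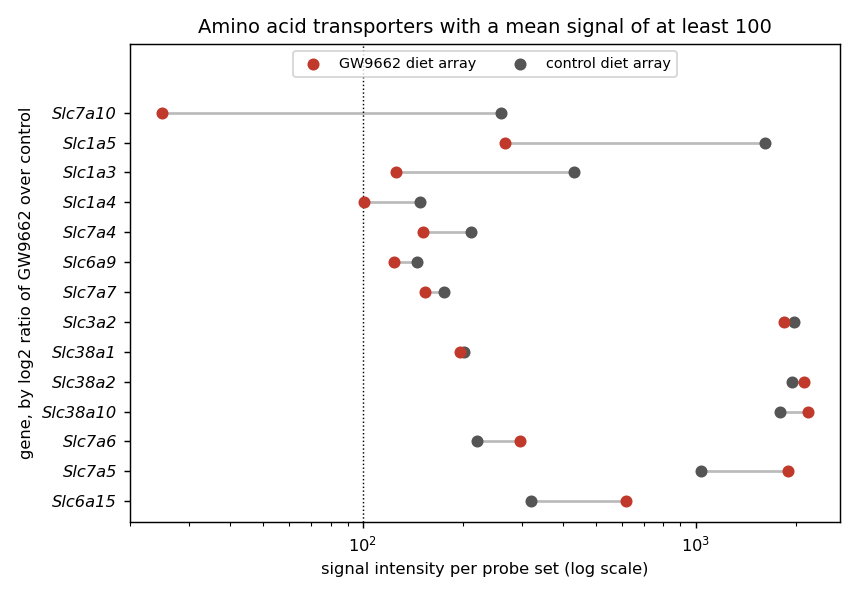
Signals of the 14 measured amino acid transporter genes on a log scale, with the GW9662 diet array in red and the control diet array in dark gray, ordered by log2 ratio. The 3 genes at the top, Slc7a10, Slc1a5 and Slc1a3, are the ones at least 2-fold lower, and Slc7a5 and Slc6a15 at the bottom are 1.83-fold and 1.93-fold higher.

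Mitochondrial carriers, the class with the most measured genes, were close to level. The Slc25 family exchanges nucleotides, phosphate, carboxylates and amino acids across the inner mitochondrial membrane. Of 32 genes 27 were measured, with 17 lower and 10 higher and a median log2 ratio of -0.09, and Slc25a10 was the only one past 2-fold. Slc25a10 exchanges malate or succinate for phosphate, and its second probe set gave 65.2 in GW9662 tumors and 230.1 in control tumors. The ADP/ATP carriers Slc25a5 (7028 in GW9662 tumors and 6639 in control tumors) and Slc25a4 (5169 in GW9662 tumors and 5173 in control tumors) differed by less than the spread between probe sets. These are close paralogs, so their probe sets may share signal. The phosphate carrier Slc25a3 had 6082 in GW9662 tumors and 7220.3 in control tumors, 1.19-fold lower.

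Other carriers of this family ran both ways. Slc25a39, which imports glutathione, had 6491 in GW9662 tumors and 6472 in control tumors, the pyrimidine nucleotide carrier Slc25a36 had 2143 in GW9662 tumors and 1828 in control tumors, and the peroxisomal member Slc25a17 had 1242 in GW9662 tumors and 1025 in control tumors. The oxoglutarate carrier Slc25a11, a partner of the malate-aspartate shuttle, had 845 in GW9662 tumors and 1117 in control tumors, 1.32-fold lower. Slc25a44, a carrier of branched-chain amino acids described in brown fat, had 157 in GW9662 tumors and 288 in control tumors, 1.84-fold lower, and a second probe set was lower too (171 in GW9662 tumors and 248 in control tumors). The iron importer mitoferrin-1, Slc25a37, was the largest of the higher genes (279 in GW9662 tumors and 181 in control tumors, 1.54-fold higher), while mitoferrin-2, Slc25a28, was level (443 in GW9662 tumors and 469.5 in control tumors).

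Slc25a51, which brings NAD into mitochondria, was the only solute carrier whose measured probe sets differed by more than 1 in log2 ratio. Its brightest probe set had 1796 in GW9662 tumors and 1859.6 in control tumors and the next had 364 in GW9662 tumors and 400.4 in control tumors. The dimmest had 160.1 in GW9662 tumors and 58.2 in control tumors, higher with GW9662 next to a control signal below the floor. Over the 36 genes with at least 2 measured probe sets, all probe sets ran the same way in 21 and both ways in 15, and the median range of log2 ratios within a gene was 0.39. The other 94 genes rest on 1 measured probe set each.

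**Figure D4:**
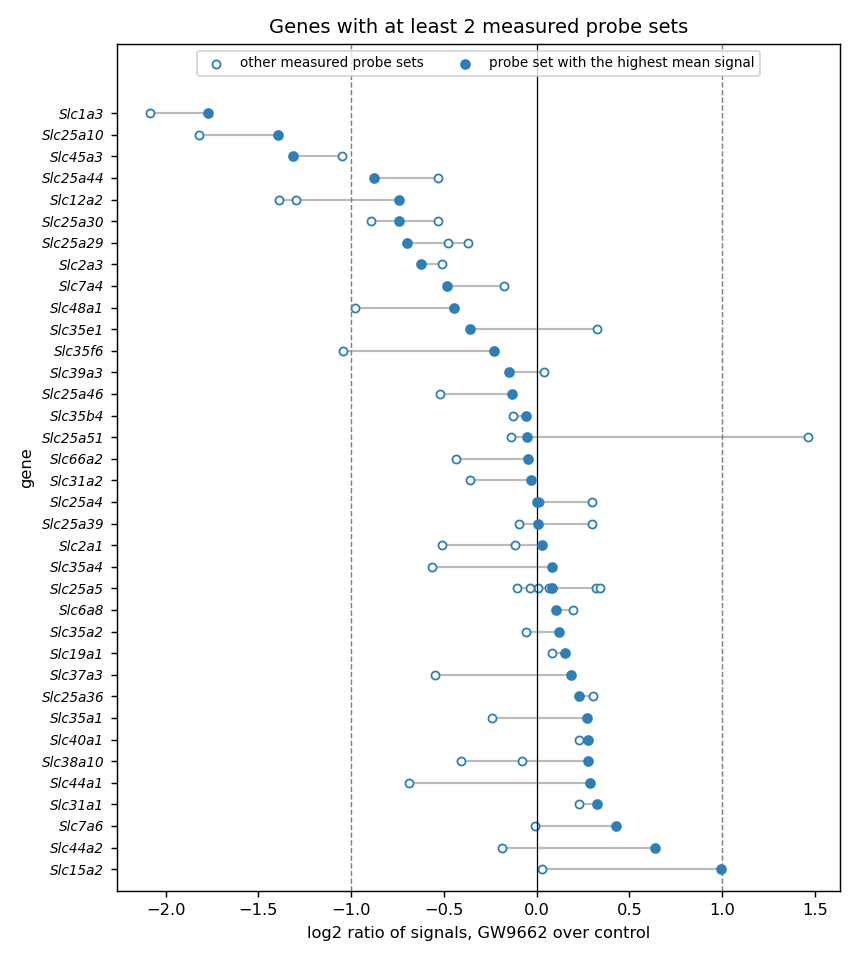
Log2 ratio of signals, GW9662 over control, at each measured probe set of the 36 solute carriers with at least 2 of them. Filled points mark the brightest probe set of a gene, open points the others, and the dashed lines 2-fold differences. The probe sets of Slc1a3, Slc25a10 and Slc45a3 all lie beyond 2-fold lower, and those of Slc25a51 are the farthest apart.

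Carriers of lactate and other carboxylates held both the gene with the highest ratio and lower genes. Of 4 measured genes 2 were lower and 2 higher. Slc16a1, the monocarboxylate transporter MCT1, had 936 in GW9662 tumors and 1676 in control tumors, 1.79-fold lower, in the same direction as Slc16a7 above. Slc16a6, of the same family, was level, with 157 in GW9662 tumors and 156 in control tumors. Basigin (Bsg), the chaperone that MCT1 needs at the membrane, was nearly level at 3232 in GW9662 tumors and 3518 in control tumors, and embigin (Emb), the partner of MCT2, had 1404 in GW9662 tumors and 1208 in control tumors. The mitochondrial pyruvate carrier subunit Mpc1, outside the Slc symbols, had 1886 in GW9662 tumors and 3280.4 in control tumors, 1.74-fold lower.

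Facilitative and sodium-coupled sugar transporters were lower or level. Of 9 measured genes 6 were lower and 3 higher, with a median log2 ratio of -0.49, and Slc5a1 and Slc45a3 were the 2 past 2-fold. Slc2a1, the glucose transporter GLUT1 of mammary epithelium and most tumors, was level at 2094 in GW9662 tumors and 2054 in control tumors. Its probe set with the lowest measured signal was lower (622 in GW9662 tumors and 884 in control tumors). The 3 other measured Slc2 genes were lower, namely Slc2a3 (218 in GW9662 tumors and 335 in control tumors), Slc2a8 (173 in GW9662 tumors and 243 in control tumors) and the urate transporter Slc2a9 (95.0 in GW9662 tumors and 153 in control tumors). Slc50a1, the SWEET-type glucose transporter, had 768 in GW9662 tumors and 749 in control tumors. The glucose-6-phosphate carrier of the endoplasmic reticulum, Slc37a4, had 238 in GW9662 tumors and 279 in control tumors, and Slc37a3 had 652 in GW9662 tumors and 574 in control tumors. A second Slc37a3 probe set was lower with GW9662 (180.0 in GW9662 tumors and 263.5 in control tumors).

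Zinc importers were mostly lower with GW9662, by small ratios. Zinc enters the cytosol through Slc39 proteins and leaves it, to the outside or into organelles, through Slc30 proteins. Of the 9 measured Slc39 genes 8 were lower, or 7 after quantile normalization, with a median log2 ratio of -0.20. Of the 5 measured Slc30 genes 3 were lower, with a median of -0.10. Over all solute carriers 63.8% were lower, with a median of -0.15. Over all measured genes 47.1% were lower, or 42.5% after quantile normalization. The difference between the Slc39 and Slc30 families was not tested. The lower importers with the largest ratios after Slc39a4 were Slc39a8 (205 in GW9662 tumors and 381 in control tumors, 1.86-fold lower) and Slc39a14 (451 in GW9662 tumors and 787 in control tumors, 1.75-fold lower), which also carry manganese. Slc39a1 was the one that was higher (1913 in GW9662 tumors and 1455 in control tumors).

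Other zinc genes differed less. Slc39a7, which releases zinc from the endoplasmic reticulum and Golgi, had 1248 in GW9662 tumors and 1430.3 in control tumors, and Slc39a6, the estrogen-regulated LIV-1 of breast cancer cells, had 1257 in GW9662 tumors and 1393 in control tumors. Slc30a4, whose loss in the mouse leaves milk without enough zinc, had 736 in GW9662 tumors and 1018 in control tumors, 1.38-fold lower. The milk secretion markers summed to 10759.8 in GW9662 tumors and 44179 in control tumors, with a median log2 ratio of -3.36. Slc30a5 had 1045 in GW9662 tumors and 1035 in control tumors and Slc30a9 had 1068 in GW9662 tumors and 1145 in control tumors. Slc30a6 had 390.3 in GW9662 tumors and 341 in control tumors, and Slc30a7 had 278 in GW9662 tumors and 378 in control tumors.

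Iron, copper, magnesium and heme carriers stayed within 2-fold. Of 8 measured genes 6 were lower and 2 higher, with a median log2 ratio of -0.22. The iron exporter ferroportin, Slc40a1, had 792 in GW9662 tumors and 653 in control tumors, and the transferrin receptor Tfrc, which brings iron in, had 749.5 in GW9662 tumors and 802 in control tumors. Slc31a1, the high-affinity copper importer, had 611 in GW9662 tumors and 487 in control tumors, and the magnesium transporter Slc41a1 had 674 in GW9662 tumors and 744 in control tumors. Slc48a1, which moves heme, had 434 in GW9662 tumors and 591 in control tumors and was lower at its second probe set too (272 in GW9662 tumors and 536 in control tumors). Slc11a1, the metal transporter of the macrophage phagosome, had 113 in GW9662 tumors and 214 in control tumors, 1.89-fold lower. The 6 macrophage markers summed to 15633 in GW9662 tumors and 16730.4 in control tumors, and their part in this value was not tested. Slc11a1 had the lowest ratio of the class, and its relative Slc11a2 had 106 in GW9662 tumors and 129.8 in control tumors.

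Most carriers of sodium, chloride, bicarbonate, sulfate and calcium on the array were dim. Of 34 genes 8 were measured, 7 of them lower (6 after quantile normalization), with a median log2 ratio of -0.23. Over all solute carriers 63.8% were lower, and over all measured genes 47.1%. Slc24a3 was the only gene of the class past 2-fold at the probe set read here. Slc12a2, the sodium-potassium-chloride cotransporter NKCC1 of secretory epithelium, had 2965 in GW9662 tumors and 4967 in control tumors, 1.68-fold lower. Its other 2 probe sets were lower by more than 2-fold, with 397 in GW9662 tumors and 977 in control tumors and with 352 in GW9662 tumors and 920.3 in control tumors. The potassium-chloride cotransporters Slc12a7 (479 in GW9662 tumors and 556 in control tumors) and Slc12a4 (114 in GW9662 tumors and 182 in control tumors) were lower by less. The sulfate transporter Slc26a2 had 656 in GW9662 tumors and 575 in control tumors and was the one that was higher. The anion exchanger Slc4a2 had 293 in GW9662 tumors and 329 in control tumors, and Slc8b1, the sodium-calcium exchanger of mitochondria, had 249 in GW9662 tumors and 295 in control tumors.

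Choline and vitamin carriers were divided. Of 10 measured genes 5 were lower and 5 higher, with a median log2 ratio of -0.0024, which turned to 0.07 after quantile normalization. In the Slc44 family of choline transporter-like proteins 3 of 4 were higher. These were Slc44a4 above, Slc44a2 (2374 in GW9662 tumors and 1527 in control tumors, 1.55-fold higher) and Slc44a1 (2478 in GW9662 tumors and 2032 in control tumors), though the dimmer probe sets of Slc44a2 (208 in GW9662 tumors and 237 in control tumors) and Slc44a1 (175 in GW9662 tumors and 282 in control tumors) were lower. Slc44a3 had 379 in GW9662 tumors and 432 in control tumors. The riboflavin transporter Slc52a3 was 1.56-fold higher (183 in GW9662 tumors and 117 in control tumors). The reduced folate carrier Slc19a1 had 398 in GW9662 tumors and 359 in control tumors, the thiamine transporter Slc19a2 had 352 in GW9662 tumors and 393 in control tumors, and the ascorbate transporter Slc23a2 had 151 in GW9662 tumors and 195 in control tumors.

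Peptide and phosphate transporters were level or higher. Slc15a2, the proton-coupled transporter PEPT2 of di- and tripeptides, had 1609 in GW9662 tumors and 809.7 in control tumors, 1.99-fold higher, but its second probe set was level (894 in GW9662 tumors and 877 in control tumors). Slc15a4, a lysosomal transporter of histidine and peptides, had 407 in GW9662 tumors and 422 in control tumors. The sodium-phosphate cotransporters Slc20a1 (945 in GW9662 tumors and 704 in control tumors) and Slc20a2 (539 in GW9662 tumors and 476 in control tumors) were both slightly higher.

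Nucleoside transport outside Slc28a3 differed by less than 1.5-fold. The equilibrative nucleoside transporter Slc29a1 had 626 in GW9662 tumors and 785 in control tumors, its lysosomal relative Slc29a3 had 349 in GW9662 tumors and 312 in control tumors, and the nucleobase transporter Slc43a3 had 443 in GW9662 tumors and 617 in control tumors. The creatine transporter gene Slc6a8 was nearly level (513 in GW9662 tumors and 477 in control tumors), where the taurine transporter gene Slc6a6 was 2.05-fold lower.

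The Slc35 family, classed here as nucleotide sugar transporters, which load the Golgi and endoplasmic reticulum for glycosylation, was nearly level. Its members were placed in this class by family number, so not every one need carry a nucleotide sugar. Of 16 measured genes 9 were lower and 7 higher, none by 2-fold at the probe set read here, with a median log2 ratio of -0.09, and after quantile normalization of both arrays 7 were lower and 9 higher, with a median of 0.04. The CMP-sialic acid transporter Slc35a1 had 1299 in GW9662 tumors and 1075 in control tumors, but a second probe set was lower (426.5 in GW9662 tumors and 503.9 in control tumors). The UDP-galactose transporter Slc35a2, which serves lactose and glycan synthesis, had 520.4 in GW9662 tumors and 479 in control tumors. Slc35b1 had 936 in GW9662 tumors and 1071 in control tumors, and Slc35b2, which brings the sulfate donor PAPS into the Golgi, had 523 in GW9662 tumors and 701 in control tumors. Slc35f5 had 586 in GW9662 tumors and 824 in control tumors, and Slc35c2 had the lowest ratio of the class (116 in GW9662 tumors and 198 in control tumors, 1.71-fold lower). Slc35f6 was 1.17-fold lower at the probe set read here and had 117 in GW9662 tumors and 242 in control tumors at its second.

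Among carriers of organic cations and anions, 5 of 19 genes were measured. Next to Slc47a1, Slc22a17, a receptor-like protein for lipocalin 2, had 216 in GW9662 tumors and 123 in control tumors, 1.75-fold higher. The carnitine transporter Slc22a5 had 312 in GW9662 tumors and 382 in control tumors, Slc22a23 had 267 in GW9662 tumors and 319 in control tumors and Slc22a18 had 82.2 in GW9662 tumors and 119.7 in control tumors. In the remaining classes, Slc10a6, which carries sulfated steroids, had 83.9 in GW9662 tumors and 141 in control tumors, and Slc10a3 had the same signal on both arrays, 209.9. Slc33a1, the acetyl-CoA transporter of the endoplasmic reticulum, had 329.5 in GW9662 tumors and 430.1 in control tumors. The lysosomal exporter of basic amino acids Slc66a1 had 193 in GW9662 tumors and 181 in control tumors, and Slc66a2 had 656 in GW9662 tumors and 676 in control tumors.

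**Figure D5:**
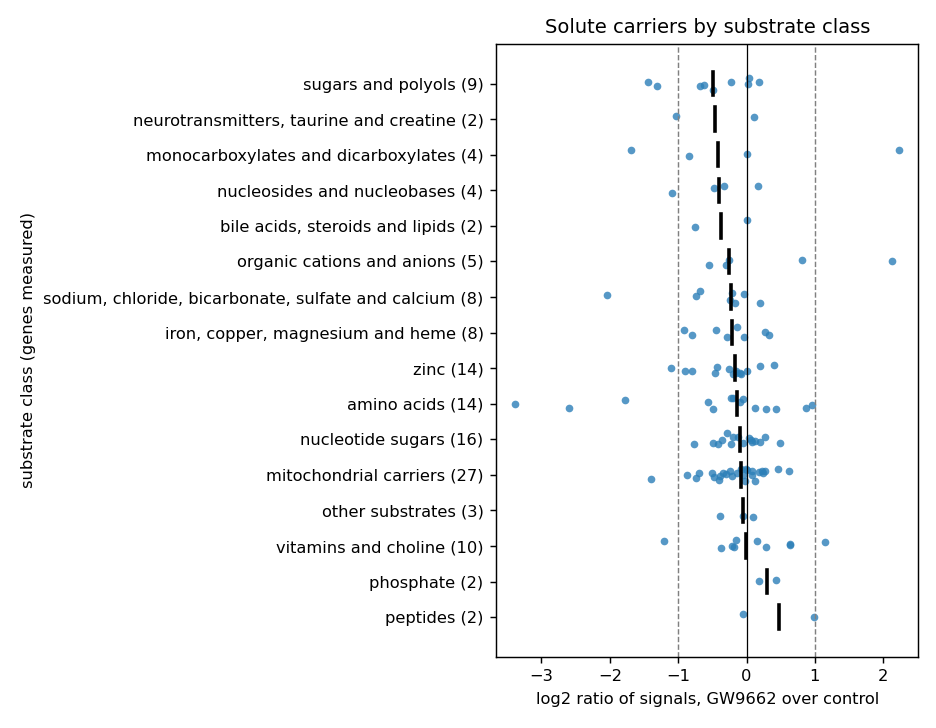
Log2 ratio of signals, GW9662 over control, of each of the 130 measured solute carriers (points) in 16 substrate classes, with the class median as a bar and the number of genes in brackets. The dashed lines mark 2-fold differences. Class medians run from -0.49 for sugars and polyols to 0.47 for the 2 peptide transporters.

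The signal minimum of 100 separated genes with near-equal values, as Slc22a18 had a mean of 100.95 and Slc7a8, a relative of LAT1, had 97.05. Of the 117 genes below it, 112 had both signals below 100 and no fold is given for them. The other 5 were Slc7a8 (105 in GW9662 tumors and 89.4 in control tumors), Slc30a1 (79.7 in GW9662 tumors and 101 in control tumors), Slc46a1 (68.3 in GW9662 tumors and 108 in control tumors), Slc7a2 (107 in GW9662 tumors and 40 in control tumors) and the phosphate transporter Slc34a2 (43.8 in GW9662 tumors and 140.3 in control tumors).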

How the data were processed

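RNA of mammary tumors was hybridized to 2 Affymetrix mouse 430A 2.0 arrays, 1 pool of 5 mice per diet. The authors deposited 1 signal intensity per probe set and array on a linear scale, made per the labels with GCOS 1.1, and both arrays had a 2% trimmed mean of 499.96. Of 22690 probe sets 20380 carried 1 gene symbol, 691 several, 1555 none and 64 were controls. The RefSeq GRCm38.p6 symbol was looked up by gene ID and found for 20351, whether or not it differed from the older symbol. Slc symbols were matched in Python 3.11.15 with pandas 2.3.3 and numpy 2.4.6. Log2 ratios are GW9662 over control, with values below 0.1 read as 0.1, and a fold against a signal below 100 is a bound computed against 100. A list's marker sums use each gene's probe set with the highest mean signal. Genes named by rule were those at least 2-fold different with a signal of 300 on either array, the 3 genes of highest mean signal in each class, and genes whose measured probe sets differed by more than 1 in log2 ratio. Other genes were named after their values were seen. Members, classes and lists were chosen with earlier results of these data known. Alternatives were centring, quantile normalization, a floor of 100, other handling of probe sets and other signal minimums, and, chosen after seeing the data, counting RefSeq synonyms as older symbols. The counting and ratio steps were tested on simulated data. Probe sets annotated to several genes were left out.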

Additional observations from a re-analysis of the deposited data

How the results depend on the processing

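Under 8 alternatives the median log2 ratio of the solute carriers stayed below 0, and the numbers at least 3-fold lower or higher with a signal of 300 stayed at 3 to 4 and at 1. A minimum mean signal of 200 left 86 genes, with 6 at least 2-fold lower and 1 higher, and class medians of 0.00 for bile acids, steroids and lipids, 0.70 for monocarboxylates and dicarboxylates, -0.10 for sugars and polyols, 0.20 for amino acids and 0.15 for vitamins and choline. With no signal minimum 40 of 247 genes were at least 2-fold lower and 18 higher, and the medians were -1.46 for bile acids, steroids and lipids, 0.088 for nucleosides and -0.12 for sugars and polyols. These settings change which dim genes are counted. The shares of all genes past 2-fold and 3-fold were computed only for the main setting. Counts past 2-fold or 3-fold under the alternatives therefore have no share beside them and cannot be set against the whole array. With each of the 180 probe sets counted on its own, the medians were 0.10 for neurotransmitters, taurine and creatine and 0.027 for peptides. Quantile normalization left 10 genes at least 2-fold lower, without Slc6a6 and Slc39a4, and 4 higher, and gave 76 lower and 54 higher solute carriers, against 42.5% lower and 57.4% higher over all measured genes, and changed class counts to 8 lower and 6 higher for amino acids, 5 and 3 for iron, copper, magnesium and heme, 7 and 2 for sugars and polyols and 10 and 4 for zinc. Of 228 values for 57 named genes 9 moved by more than the SD of 0.36 between probe sets of a gene, and no difference of at least 2-fold changed direction. With signals below 100 set to 100, 9 genes were at least 2-fold lower and 2 higher, and the log2 ratio was -1.38 for Slc7a10, -0.75 for Slc16a7, -0.69 for Slc5a6, -0.88 for Slc39a4 and 0.89 for Slc47a1. With the median over probe sets the log2 ratio was -1.30 for Slc12a2, 0.51 for Slc15a2 and 0.22 for Slc44a2. For Slc37a3 (-0.18), Slc44a1 (-0.20), Slc38a10 (-0.08) and Slc2a1 (-0.12) it was then on the other side of 0 from the main setting. The class medians of 2 to 5 genes rest on few values. No paired analysis was possible because each diet had 1 array, and no replicate could be left out.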

Other observations

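Transport genes outside the Slc symbols ran both ways at these signals. Of 8 measured genes of the list of other carriers 4 were lower and 4 higher in GW9662 tumors, none past 2-fold, and their median log2 ratio was -0.01. The prostaglandin transporter Slco2a1 had a signal of 1487 in GW9662 tumors and 925 in control tumors, and the phosphate exporter Xpr1 had 1055 in GW9662 tumors and 669.5 in control tumors. The uncoupling protein Ucp1 of brown fat was below 100 on both arrays, with 1.9 in GW9662 tumors and 76.2 in control tumors, and Ucp3 of muscle had 28.7 in GW9662 tumors and 112 in control tumors. Of the 3 erythroid markers on the array, the heme synthesis gene Alas2 had 48.5 in GW9662 tumors and 239.6 in control tumors. Hba-a1 (1.8 in GW9662 tumors and 2.1 in control tumors) and Epb42 (2.3 in GW9662 tumors and 4.8 in control tumors) were below 100 on both arrays. The 3 hepatocyte markers on the array summed to 80.3 in GW9662 tumors and 181 in control tumors, and none was measured. Of the 3 Slc probe sets annotated to several genes, the one shared by Slc28a2 and Slc28a2b had 26.6 in GW9662 tumors and 121 in control tumors, and the other 2 were below 100 on both arrays.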
